A study of Mus musculus with 27 samples.

Results

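The complement genes C1qa, C1qb, C1qc, C1ra, C1s1, C3, C4b, Cfb and Serping1 were followed through 27 libraries of sorted mouse cells. They were chosen by symbol as a list of complement components and make up 9 of the 54446 gene identifiers in the deposited tables. All mice were of the non-obese diabetic background, which develops autoimmune diabetes, and were 12 weeks old. TG+ animals carry Ins2-CCL21, in which the insulin promoter Ins2 drives the chemokine CCL21 in beta cells; TG- animals are NOD/ShiLtJ mice without it. By label, 4 TG+ and 4 TG- libraries held CD45 leukocytes of the islets, 2 TG+ and 2 TG- held islet gp38-high cells, 4 TG+ and 4 TG- held islet gp38-low cells, and 3 TG+ and 4 TG- held fibroblastic reticular cells of lymph node (LN FRC). Nothing in the labels says whether libraries within a group derive from different mice, so p-values reflect sample-to-sample spread alone, which could be technical.

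Complement is a cascade of plasma proteins that tags targets for uptake and lysis. In the classical pathway C1q binds a target and its partner proteases C1r and C1s cleave C4 and C2, which together form the enzyme that cleaves C3. Factor B, from Cfb, supplies the protease of the alternative pathway's own C3 convertase, and the C1 inhibitor, from Serping1, blocks C1r and C1s. Plasma C3 and most other components come largely from the liver, while C1q is known as a product of macrophages and dendritic cells.

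The labels were checked first, because they bear on every value below. Ptprc, which encodes CD45, went against the sort label in 14 of 27 libraries (7 TG+ and 7 TG-). Each library is therefore called by its label, and levels are described over 4 classes cut from expression: 8 Ptprc-high libraries (Ptprc above 100 CPM, that is, counts scaled to a common total of reads in genes), then 7 Ccl21a-high libraries (Ccl21a above 1000 CPM), then 4 Msln-high libraries (Msln above 100 CPM) and 8 remaining libraries. No library passed more than 1 of these thresholds. Since the classes were cut from the same libraries, members are compared between classes by their values and their overlap, with no test.

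The Ptprc-high class held 3 TG+ and 5 TG- libraries, labelled LN FRC (5), CD45 (1), gp38-high (1) and gp38-low (1). The Ccl21a-high class held 3 TG+ and 4 TG- libraries, of which 4 were labelled CD45 and 3 gp38-low. The Msln-high class held 1 TG+ and 3 TG- libraries, with 1 library of each label. The remaining class held 6 TG+ and 2 TG- libraries, labelled gp38-low (3), CD45 (2), gp38-high (2) and LN FRC (1). Ccl21a, a marker of lymph node reticular cells, reached at most 2.23 CPM in libraries labelled LN FRC. Reads in genes ran from 8517844 to 25194443 per library, so 3 counts, the limit that a count of 0 allows, stood at 0.119 to 0.352 CPM.

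Marker lists described what the classes held. All 10 macrophage markers had a median of at least 1 CPM in the Ptprc-high class, where they summed to 1270 to 8103 CPM, and this class also held B cell markers (936 to 1891 CPM summed) and T cell markers (626 to 1301 CPM summed). Adgre1, which encodes the macrophage antigen F4/80, was at 52.5 to 513 CPM there and did not exceed 0.315 CPM elsewhere. The macrophage list summed to 159 to 213 CPM in the Ccl21a-high class and 221 to 254 CPM in the Msln-high class. In the remaining class it summed to 88.7 to 187 CPM. In these classes 7, 6 and 6 of its markers had a median of at least 1 CPM. Among them Csf1r was at 92.3 to 105 CPM in the Msln-high libraries. The 6 fibroblast markers summed to 24.1 to 113 CPM in the Ptprc-high class, 15977 to 22711 CPM in the Ccl21a-high class, 12831 to 26143 CPM in the Msln-high class and 30353 to 41658 CPM in the remaining class. Reticular stroma markers summed to 3451 to 7632 CPM in the Ccl21a-high class and mesothelial markers to 3632 to 5316 CPM in the Msln-high class, but these lists hold Ccl21a and Msln, whose levels cut the classes. Of the genes not used for that, the reticular chemokine gene Ccl19 was at 636 to 984 CPM in the Ccl21a-high class, and the mesothelial gene Upk3b at 1461 to 2177 CPM in the Msln-high class. Pericyte and smooth muscle markers summed to 2293 to 3865 CPM in the Ccl21a-high class and at most 319 CPM in any other library. Endothelial markers summed to 168 to 288 CPM in the Msln-high class and 60.6 to 157 CPM in the Ptprc-high class, and did not exceed 14.9 CPM in the other libraries. Acinar markers, from digestive cells of the pancreas, summed to 61.9 to 6685 CPM in the remaining class and 180 to 2246 CPM in the Ptprc-high class. They summed to 57.3 to 393 CPM in the Msln-high class and at most 0.768 CPM in the Ccl21a-high class. In bulk libraries, fewer cells of a type and less RNA per cell cannot be told apart.

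The members lie on 4 chromosomes (GRCm38, GENCODE M21 annotation), and those that work together are neighbours in several cases. On chromosome 4, minus strand, C1qa (ENSMUSG00000036887.5) spans 136895917 to 136898803, C1qc (ENSMUSG00000036896.5) 136889804 to 136893065 and C1qb (ENSMUSG00000036905.8) 136880129 to 136886187. The starts of C1qa and C1qc are 5738 bases apart and those of C1qb and C1qc 6878. On chromosome 6, C1ra (ENSMUSG00000055172.10, plus strand) spans 124512405 to 124523443 and C1s1 (ENSMUSG00000038521.17, minus strand) 124530345 to 124542359. Chromosome 17 holds, all on the minus strand, C4b (ENSMUSG00000073418.4) at 34728380 to 34743882, Cfb (ENSMUSG00000090231.10) at 34856374 to 34862518 and C3 (ENSMUSG00000024164.15) at 57203970 to 57228136. Serping1 (ENSMUSG00000023224.12) lies on chromosome 2, minus strand, at 84765387 to 84775444.

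Promoters were read for 5 of the 9 members from RefSeq (GRCm38.p6), as the 250 bases before the start. The 4 below are shown because each holds a match to a motif searched, in genes high in the leukocyte class (C1qb and C1qc) or in the others (C1s1 and C3). Capitals mark matches, on either strand, to GAGGAA, the core bound by the myeloid factor PU.1, or to TTGCNNAA, a C/EBP type motif. C1qb (chr4:136886201-136886450, minus strand) and C1qc (chr4:136893066-136893164, minus strand, the 99 bases of its window outside the GENCODE gene) hold the first. C1s1 (chr6:124542360-124542609, minus strand, 1 of 2 RefSeq starts) and C3 (chr17:57228137-57228386, minus strand) hold the second.
C1qb: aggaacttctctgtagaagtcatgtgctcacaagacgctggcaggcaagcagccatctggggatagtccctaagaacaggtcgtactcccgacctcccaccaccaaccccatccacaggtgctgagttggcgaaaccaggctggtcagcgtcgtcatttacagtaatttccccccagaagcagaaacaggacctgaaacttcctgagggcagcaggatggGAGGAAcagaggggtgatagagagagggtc
C1qc: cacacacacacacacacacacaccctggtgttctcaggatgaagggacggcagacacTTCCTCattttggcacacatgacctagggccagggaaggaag
C1s1: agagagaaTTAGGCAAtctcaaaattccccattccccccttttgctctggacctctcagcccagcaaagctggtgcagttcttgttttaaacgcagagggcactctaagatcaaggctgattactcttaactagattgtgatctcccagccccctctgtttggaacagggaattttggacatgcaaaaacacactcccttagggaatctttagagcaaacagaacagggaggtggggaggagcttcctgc
C3: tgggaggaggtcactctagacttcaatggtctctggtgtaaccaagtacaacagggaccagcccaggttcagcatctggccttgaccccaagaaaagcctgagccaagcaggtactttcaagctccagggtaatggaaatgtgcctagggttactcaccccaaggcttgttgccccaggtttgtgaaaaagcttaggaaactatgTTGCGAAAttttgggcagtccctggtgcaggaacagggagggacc

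GAGGAA stood 30 to 25 bases before the C1qb start on the forward strand and 193 to 188 bases before the C1qc start on the reverse strand, and 23.3% of 32817 promoters of the same length held it. TTGCNNAA stood 242 to 235 bases before the C1s1 start on the reverse strand and 45 to 38 bases before the C3 start on the forward strand, and 9.57% of promoters held it. The C1ra window, most of which lies inside the GENCODE gene and is not printed, held neither, and none of the 5 held TTCNNNGAA (STAT type, in 7.01% of promoters) or an NF-kB type motif (in 1.41%). These motifs do not overlap in the windows shown. A match is a description of letters and shows no binding.

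The C1q chains divided the classes most widely. C1qa, the A chain, had a lowest, median and highest level of 193, 608 and 1347 CPM in the Ptprc-high class, against at most 0.833 CPM in the other 19 libraries. C1qb, the B chain, was at 132, 409 and 987 CPM in the Ptprc-high class, against at most 0.552 CPM elsewhere. C1qc, the C chain, was at 133, 429 and 956 CPM in the Ptprc-high class, against at most 0.638 CPM elsewhere. All 8 Ptprc-high libraries lay above all 19 others for each chain, and the lowest was 232-fold (C1qa), 239-fold (C1qb) and 208-fold (C1qc) above the highest of the others. Outside the Ptprc-high class the chains had 83, 49 and 59 counts (C1qa, C1qb, C1qc) summed over 19 libraries, and 1, 6 and 6 of these libraries had none.

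Of the 9 members, 3 lay wholly higher in the Ptprc-high class than in the other 19 libraries (the C1q chains) and 4 wholly lower (C1ra, C1s1, C3 and Serping1), while C4b and Cfb overlapped. Over 14959 genes with a mean of at least 1 CPM, 12.4% lay wholly higher and 20.4% wholly lower, or 32.8% in either direction. With all 3 class thresholds doubled, 1 library, labelled LN FRC TG- replicate 4 with Ptprc at 169 CPM and C1qa at 740.0 CPM, moved to the remaining class. Then 0 members lay wholly higher and 0 wholly lower, beside 4.33% of genes in either direction.

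**Figure D1:**
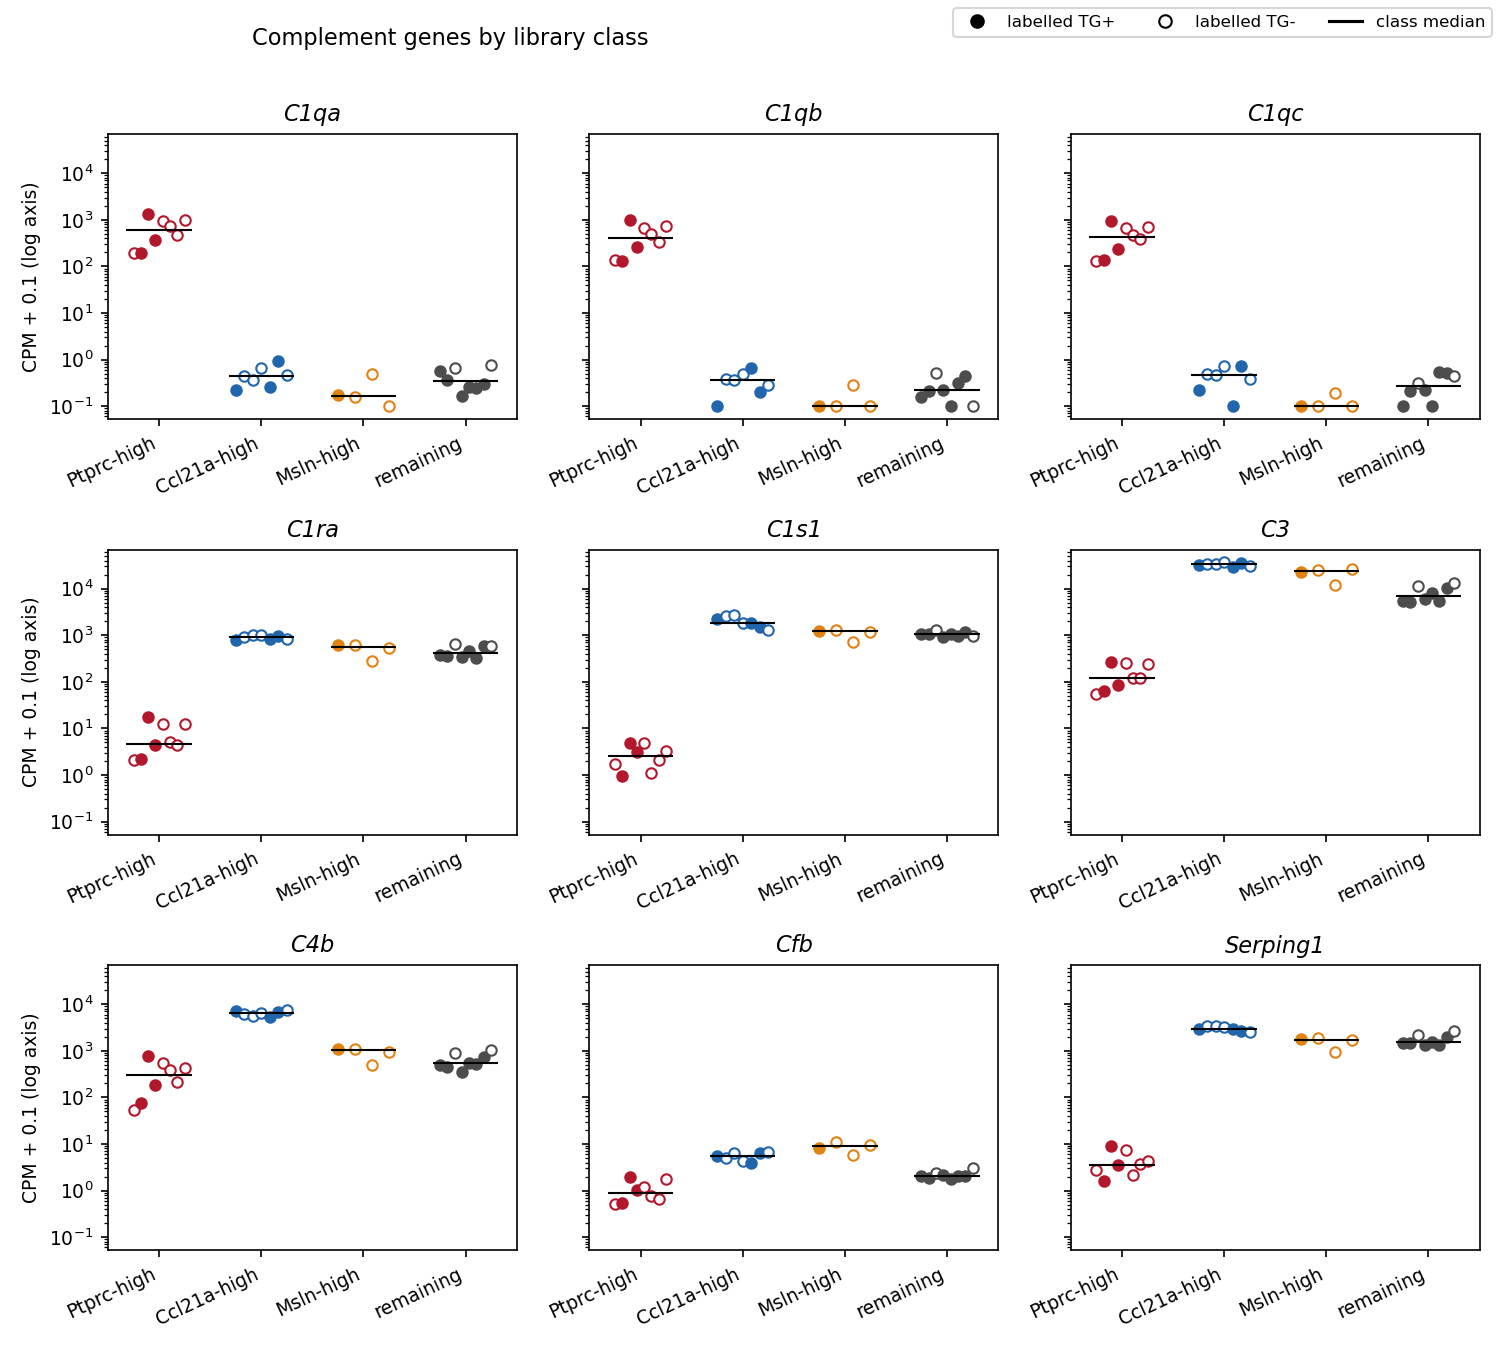
Level of each member (CPM, log axis) in each of the 27 libraries, by class. The C1q chains sit at 132 to 1347 CPM in the Ptprc-high class and below 1 CPM elsewhere, and C3 reaches 36555 CPM in the Ccl21a-high class.

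Among the 8 Ptprc-high libraries the chains kept a steady proportion while their level varied. C1qa ran from 193 CPM in the library labelled LN FRC TG+ replicate 2 and 195 CPM in CD45 TG- replicate 4 to 992 CPM in gp38-low TG- replicate 1 and 1347 CPM in LN FRC TG+ replicate 3. Per exon length, C1qa stood at 2.28 to 2.92 times C1qc (median 2.65) and C1qb at 1.49 to 1.90 times C1qc (median 1.82). Adgre1 put the libraries in the same order as C1qa except for the lowest pair, and was at 64.8 CPM in LN FRC TG+ replicate 2, 52.5 CPM in CD45 TG- replicate 4 and 513 CPM in LN FRC TG+ replicate 3. The part of the cell mix in the level of C1q was not tested.

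**Figure D2:**
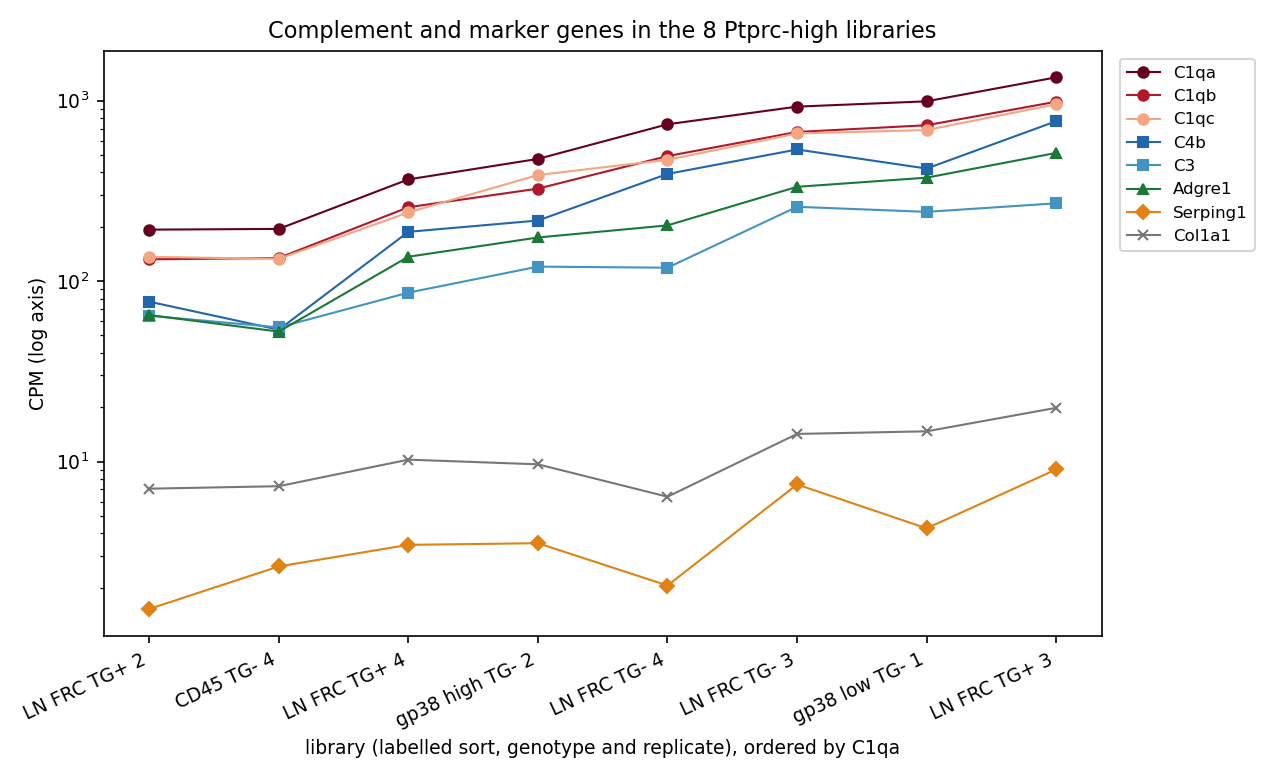
Levels of members and marker genes in the 8 Ptprc-high libraries (CPM, log axis), ordered by C1qa. C4b lies between 53.8 and 770 CPM and ends highest where C1qa and the macrophage gene Adgre1 do. Serping1 (at most 9.04 CPM) and Col1a1 (at most 19.8 CPM) stay low but are also highest in that library.

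The proteases that C1q carries showed the reverse distribution. C1ra, which encodes C1r, had a lowest, median and highest level of 2.05, 4.66 and 17.8 CPM in the Ptprc-high class, 796, 896 and 1036 CPM in the Ccl21a-high class and 329, 416 and 643 CPM in the remaining class. In the 4 Msln-high libraries, labelled CD45 TG+ replicate 1, gp38-high TG- replicate 1, gp38-low TG- replicate 4 and LN FRC TG- replicate 2, C1ra was at 628, 287, 531 and 607 CPM. The Ccl21a-high libraries lay above all others for C1ra, and their median was 2.15-fold that of the remaining class.

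C1s1, which encodes C1s, had 0.870, 2.52 and 4.82 CPM (lowest, median, highest) in the Ptprc-high class, 1322, 1865 and 2660 CPM in the Ccl21a-high class and 940.2, 1046 and 1288 CPM in the remaining class. In the Msln-high libraries, in the order above, it was at 1219, 708, 1195 and 1277 CPM. The median outside the Ptprc-high class was 484-fold that inside it. The 8 libraries high in the C1q chains were the 8 lowest in C1ra and in C1s1. C1s1 moved with its near-copy C1s2, at 8.70 to 10.1 times its CPM in the 19 other libraries. Copies share sequence with these genes: 50.8% of the 50-base windows of C1ra recur elsewhere, in C1rb or a pseudogene, and 21.8% of those of C1s1 in C1s2, so their levels are uncertain.

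C3, the protein on which all complement pathways converge, was among the most abundant messages outside the leukocytes. It had 28891, 33575 and 36555 CPM (lowest, median, highest) in the Ccl21a-high class, or 2.89% to 3.66% of reads in genes, and ranked 2 to 3 of all genes by reads there. In the Msln-high libraries, in the order above, it was at 23289, 12102, 26035 and 25780 CPM. The remaining class had 5071, 6904 and 12988 CPM. Its median was 4.86-fold higher in the Ccl21a-high than in the remaining class, with no overlap, and 1.37-fold higher than in the Msln-high class, again with no overlap. The library labelled gp38-high TG- replicate 1 stood apart in the Msln-high class: without it the other 3 lay above all remaining libraries, while with it the classes overlapped. That library also held fewer fibroblast marker reads (12831 CPM summed, against 21036 to 26143 CPM in the other 3) and more ductal marker reads (3085 CPM, against 512 to 1217 CPM); their part in its C3 level was not tested.

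Within the remaining class C3 was graded, from 5071 to 12988 CPM. It is given here as a lower and a higher set, cut where Cpa1 levels divide the libraries. The libraries labelled CD45 TG+ replicates 2 and 4, gp38-high TG+ replicate 1 and gp38-low TG+ replicate 2 had 5482, 5071, 5899 and 5357 CPM. Those labelled gp38-high TG+ replicate 2, gp38-low TG+ replicate 4, gp38-low TG- replicate 2 and LN FRC TG- replicate 1 had 7909, 10409, 12988 and 11355 CPM. Cpa1, the acinar enzyme gene used for the cut, was at 673 to 1309 CPM in the lower set and at 15.0 to 50.4 CPM in the higher set. Ductal markers summed to 2551 to 3127 CPM in the lower set and 266 to 1302 CPM in the higher set. All libraries of the lower set were TG+, and the TG- libraries fell in the higher set. What part acinar reads, ductal reads or the genotype label had in the C3 level of this class was not tested.

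In the Ptprc-high class C3 was far lower, at 55.4, 119 and 269.9 CPM (lowest, median, highest), and did not overlap any other library. Its median elsewhere was 195-fold higher. The fibroblast gene Col1a1 was at 6.38 to 19.8 CPM in the same libraries and at 2755 to 8344 CPM elsewhere. The ratio of C3 to Col1a1 CPM was 7.59 to 18.6 in the Ptprc-high class, 6.18 to 9.34 in the Ccl21a-high class, 4.25 to 5.83 in the Msln-high class and 0.696 to 2.07 in the remaining class.

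C4b, which encodes the C4 that classical and lectin pathways cleave, was the member that separated Ccl21a-high libraries most from the rest of the stroma. Its lowest, median and highest levels were 5399, 6427 and 7503 CPM in the Ccl21a-high class, where it ranked 7 to 11 of all genes by reads, and 348, 534 and 1019 CPM in the remaining class. In the Msln-high libraries, in the order above, C4b was at 1098, 499, 965 and 1080 CPM. The Ccl21a-high median was 12.0-fold that of the remaining class and 6.29-fold that of the Msln-high class, with no overlap in either case. Pericyte and smooth muscle markers (2293 to 3865 CPM summed in the Ccl21a-high class, at most 319 CPM elsewhere) divided the libraries in the same way, and their part in the C4b level was not tested. Near-copies bear on these values, since 34.6% of the 50-base windows of C4b recur in C4a, whose own level was lower (C4b stood at 45.6 to 91.3 times its CPM outside the Ptprc-high class).

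C4b and Cfb were the members whose ranges overlapped between leukocyte and other libraries. C4b was at 53.8, 305 and 770 CPM (lowest, median, highest) in the Ptprc-high class, against 348 to 7503 CPM in the other 19 libraries. In CPM, it stood at 0.276 to 0.579 times C1qa in the 8 Ptprc-high libraries. The lowest C4b was in the library labelled CD45 TG- replicate 4 (53.8 CPM), with C1qa at 195 CPM, and the highest in LN FRC TG+ replicate 3 (770 CPM), with C1qa at 1347 CPM. The ratio of C4b to Col1a1 CPM was 7.37 to 61.6 in the Ptprc-high class and 0.0534 to 1.82 elsewhere, with no overlap. Col1a1 itself was at 6.38 to 19.8 CPM in the Ptprc-high class and at 2755 to 8344 CPM elsewhere. A ratio to Col1a1 is therefore higher in the Ptprc-high class for any gene lowered less than Col1a1. The same ratio for Serping1 was 0.215 to 0.525 and overlapped that of the other libraries (0.171 to 0.813). C4b did not stand alone in this: the ratio of C1ra to Col1a1 was 0.282 to 0.899 in the Ptprc-high class and 0.0427 to 0.265 elsewhere, again with no overlap. The share of all genes with such a ratio was not counted. Which cells of the Ptprc-high libraries the C4b and C1ra reads came from was not tested. Over the 8 Ptprc-high libraries, which share 1 class and its mix of cells, log2(CPM + 0.5) of C1ra, C3 and C4b correlated with that of C1qa at r = 0.956, 0.959 and 0.985. C1s1, Cfb, Serping1 and the fibroblast gene Col1a1 correlated with C1qa at r = 0.684, 0.853, 0.761 and 0.755. C1ra, C3 and C4b correlated with Col1a1 at r = 0.904, 0.854 and 0.729.

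Serping1, the inhibitor of C1r and C1s, followed the proteases rather than C1q. It had 1.52, 3.49 and 9.04 CPM (lowest, median, highest) in the Ptprc-high class, 2569, 2989 and 3385 CPM in the Ccl21a-high class and 1303, 1513 and 2611 CPM in the remaining class. In the Msln-high libraries, in the order above, it was at 1755, 934, 1737 and 1862 CPM. The median of the 19 other libraries was 559-fold that of the Ptprc-high class. Serping1 overlapped between the Ccl21a-high and remaining classes, because the library labelled gp38-low TG- replicate 2, at 2611 CPM, lay above the lowest Ccl21a-high library, labelled gp38-low TG- replicate 3, at 2569 CPM.

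Cfb, the protease gene of the alternative pathway, was low in all classes as counted. It was at 0.425, 0.785 and 1.88 CPM (lowest, median, highest) in the Ptprc-high class, 3.78, 5.50 and 6.49 CPM in the Ccl21a-high class and 1.67, 1.97 and 2.90 CPM in the remaining class. In the Msln-high libraries, in the order above, it was at 8.09, 5.69, 9.47 and 11.0 CPM. All Msln-high and all Ccl21a-high libraries lay above all remaining ones for Cfb. Its level is uncertain: 79.5% of its exon bases (2246 of 2825) are shared on the same strand with the readthrough gene Gm20547, which had 0 counts in all 27 libraries. In the deposited layout, reads fitting more than 1 gene stand on a line of their own and in no gene; the part of this in the level of Cfb was not tested. The neighbour C2, which shares 42.8% of its exon bases with Gm20547, had medians of 5.15, 157, 248 and 28.5 CPM in the Ptprc-high, Ccl21a-high, Msln-high and remaining classes, the same order of classes as Cfb.

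Per kilobase of exon, the order of the members differed between classes. In the Ptprc-high class the median per kilobase was 584 CPM for C1qa, 376 CPM for C1qb, 222 CPM for C1qc, 53.5 CPM for C4b and 23.2 CPM for C3. C1ra had 1.56 CPM per kilobase there and C1s1 0.804. In the Ccl21a-high class the order was C3 (6528 CPM per kilobase), Serping1 (1285), C4b (1129), C1s1 (596) and C1ra (301). Summed over the 9 members, complement took 0.0578% to 0.436% of reads in genes in the Ptprc-high class, 3.99% to 4.91% in the Ccl21a-high class, 1.45% to 3.06% in the Msln-high class and 0.838% to 1.82% in the remaining class.

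Counts of members between the other classes were set beside those of all genes. Between the Ccl21a-high and remaining classes 5 of 9 members lay wholly higher (C1ra, C1s1, C3, C4b and Cfb), beside 9.77% of 14959 genes, and 0 wholly lower, beside 16.2%; 25.9% of genes lay apart in either direction. Between the Ccl21a-high and Msln-high classes 5 lay wholly higher (C1ra, C1s1, C3, C4b and Serping1), beside 10.1% of genes, and 0 lower, beside 31.2%. Between the Msln-high and remaining classes 1 lay wholly higher (Cfb), beside 19.9% of genes, and 0 lower, beside 8.4%. Leaving out the library labelled gp38-high TG- replicate 1 gave 2 members (C3 and Cfb) in the last comparison, and put Cfb wholly lower in the Ccl21a-high than in the Msln-high class. It also took the members wholly higher there to 6 by adding C1qa, which was at most 0.833 CPM in the Ccl21a-high class and at most 0.0703 CPM in the other 3 Msln-high libraries, under the limit that a count of 0 allows.

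Ratios within a library, which do not depend on its total, differed between classes too. C3 to Serping1 CPM was 21.1 to 57.8 in the Ptprc-high class, 9.81 to 13.0 in the Ccl21a-high class, 13.0 to 15.0 in the Msln-high class and 3.47 to 5.33 in the remaining class. C4b to Serping1 CPM was 20.5 to 191 in the Ptprc-high class, 1.61 to 2.92 in the Ccl21a-high class, 0.534 to 0.626 in the Msln-high class and 0.267 to 0.413 in the remaining class. C4b to C3 CPM was highest in the Ptprc-high class (0.971 to 3.31) and was 0.163 to 0.239 in the Ccl21a-high class, 0.0371 to 0.0472 in the Msln-high class and 0.0589 to 0.0957 in the remaining class. The C4b to Serping1 and C4b to C3 ratios overlapped between none of the 4 classes. The C3 to Serping1 ratio overlapped between the Ccl21a-high class (up to 13.001) and the Msln-high class (from 12.955).

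**Figure D3:**
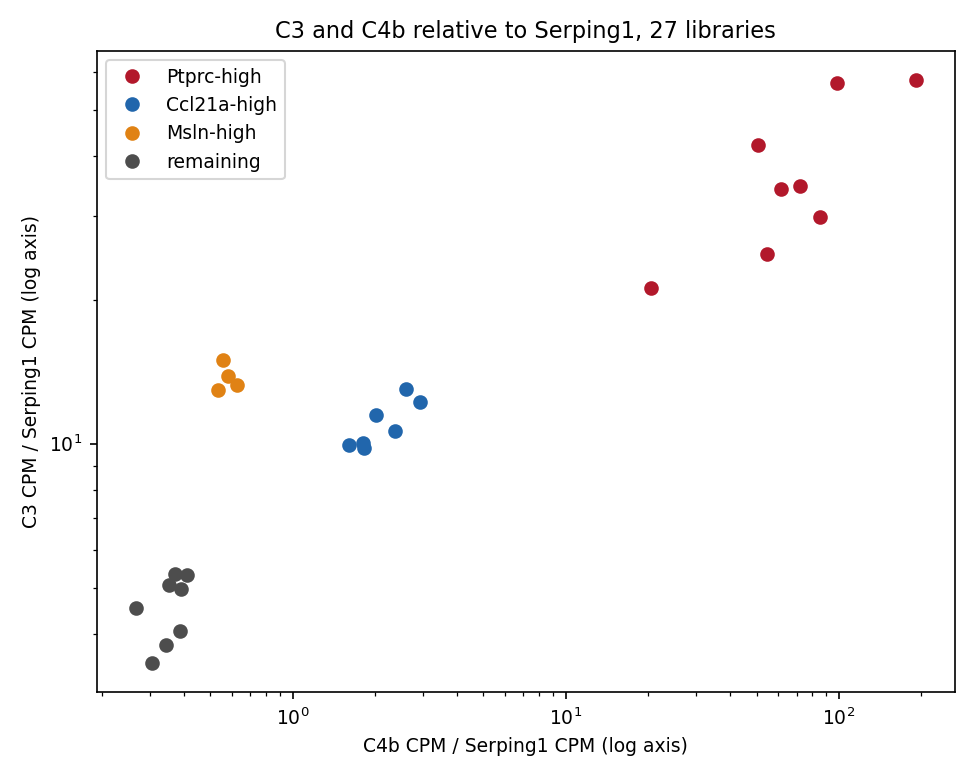
C3 CPM over Serping1 CPM against C4b CPM over Serping1 CPM (both log axes), 1 point per library, coloured by class. The 8 Ptprc-high libraries lie at the upper right (C4b ratio 20.5 to 191) and the 8 remaining libraries at the lower left (0.267 to 0.413).

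Other complement genes were counted from 6 lists of 41 genes, 31 of them with a mean of at least 1 CPM. Between the Ptprc-high class and the other 19 libraries 11 lay wholly higher and 10 wholly lower, beside 12.4% and 20.4% of all genes. Of the 10 receptors 8 lay wholly higher, among them Itgb2 (median 431 CPM in the Ptprc-high class), Cd93 (159 CPM), Itgax (102 CPM), C5ar1 (82.0 CPM), Cr2 (79.1 CPM), C3ar1 (60.5 CPM) and Itgam (22.3 CPM), most of which bind complement fragments or form part of such receptors. None of these genes had a median above 17.2 CPM in any other class. C1qbp, a widely expressed C1q-binding protein, was at medians of 46.5, 23.8, 26.2 and 29.4 CPM in the Ptprc-high, Ccl21a-high, Msln-high and remaining classes. Itgam shares 68.7% of its exon bases with Gm49368 and is uncertain.

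Of the initiation list, 9 genes had a mean of at least 1 CPM. In the Ptprc-high class 1 of them lay wholly higher and 6 wholly lower, beside 12.4% and 20.4% of all genes. This list leaves out the C1q chains, which are members and lay wholly higher there. Fcna, which encodes ficolin-A, a lectin that activates complement, had a median of 71.6 CPM in the Ptprc-high class and 0 in each other class. C2, C1rb, C1s2, Masp1, Colec11 and Colec12 lay wholly lower in the Ptprc-high class. Colec12 had medians of 17.3, 419, 353 and 223 CPM in the Ptprc-high, Ccl21a-high, Msln-high and remaining classes. C1s2 had medians of 0.208, 209, 128 and 106 CPM in the same order, C1rb 0.113, 39.7, 16.9 and 13.5 CPM, and C4a 6.24, 87.4, 17.0 and 9.78 CPM. Colec11 was highest in the Ccl21a-high class (13.4 CPM) and Masp1, a lectin pathway protease, in the remaining class (41.3 CPM).

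Of 5 soluble regulators with a mean of at least 1 CPM, 3 (Clu, Vtn and Cfi) lay wholly lower in the Ptprc-high class and 0 wholly higher. Of all genes 20.4% lay wholly lower and 12.4% wholly higher. Clu, which encodes clusterin, an inhibitor of the lytic complex, had medians of 15.6, 5176, 1447 and 1902 CPM in the Ptprc-high, Ccl21a-high, Msln-high and remaining classes. Vtn, which encodes vitronectin, a further inhibitor of lysis, had medians of 1.42, 845, 9.17 and 86.7 CPM in the same order. Cfi, the protease that cuts C3b and C4b, was at 71.3 CPM in the Ccl21a-high class and at most 4.65 CPM in the median of any other. Among membrane regulators Cd55 was highest in the remaining class (178 CPM, against 41.5, 17.8 and 57.6 CPM in the Ptprc-high, Ccl21a-high and Msln-high classes). Cr1l had medians of 37.4 to 71.2 CPM over the 4 classes, and Cd59a reached 13.8 CPM in the Msln-high class.

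Of the alternative and terminal lists, 1 of 2 and 2 of 7 genes had a mean of at least 1 CPM. These lists leave out C3 and Cfb, which are members. Cfp, properdin, which stabilizes the alternative convertase, was the one alternative pathway gene of the list above 1 CPM on average, with a median of 262 CPM in the Ptprc-high class and at most 3.07 CPM in the others. Of 7 terminal genes only C7, at medians of 0.116, 28.3, 39.8 and 177 CPM in the Ptprc-high, Ccl21a-high, Msln-high and remaining classes, reached a median of 10 CPM. C6 was at 0.638 to 59.8 CPM in the Ptprc-high class, with a median of 6.83 CPM, and at most 0.287 CPM elsewhere. C8a, Fcnb, Mbl1 and Mbl2 had a median of 0 in all 4 classes, and C8b, C9, Hc, Cfd and C4bp had medians of at most 0.474 CPM. Liver markers summed to at most 99.6 CPM in any library.

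**Figure D4:**
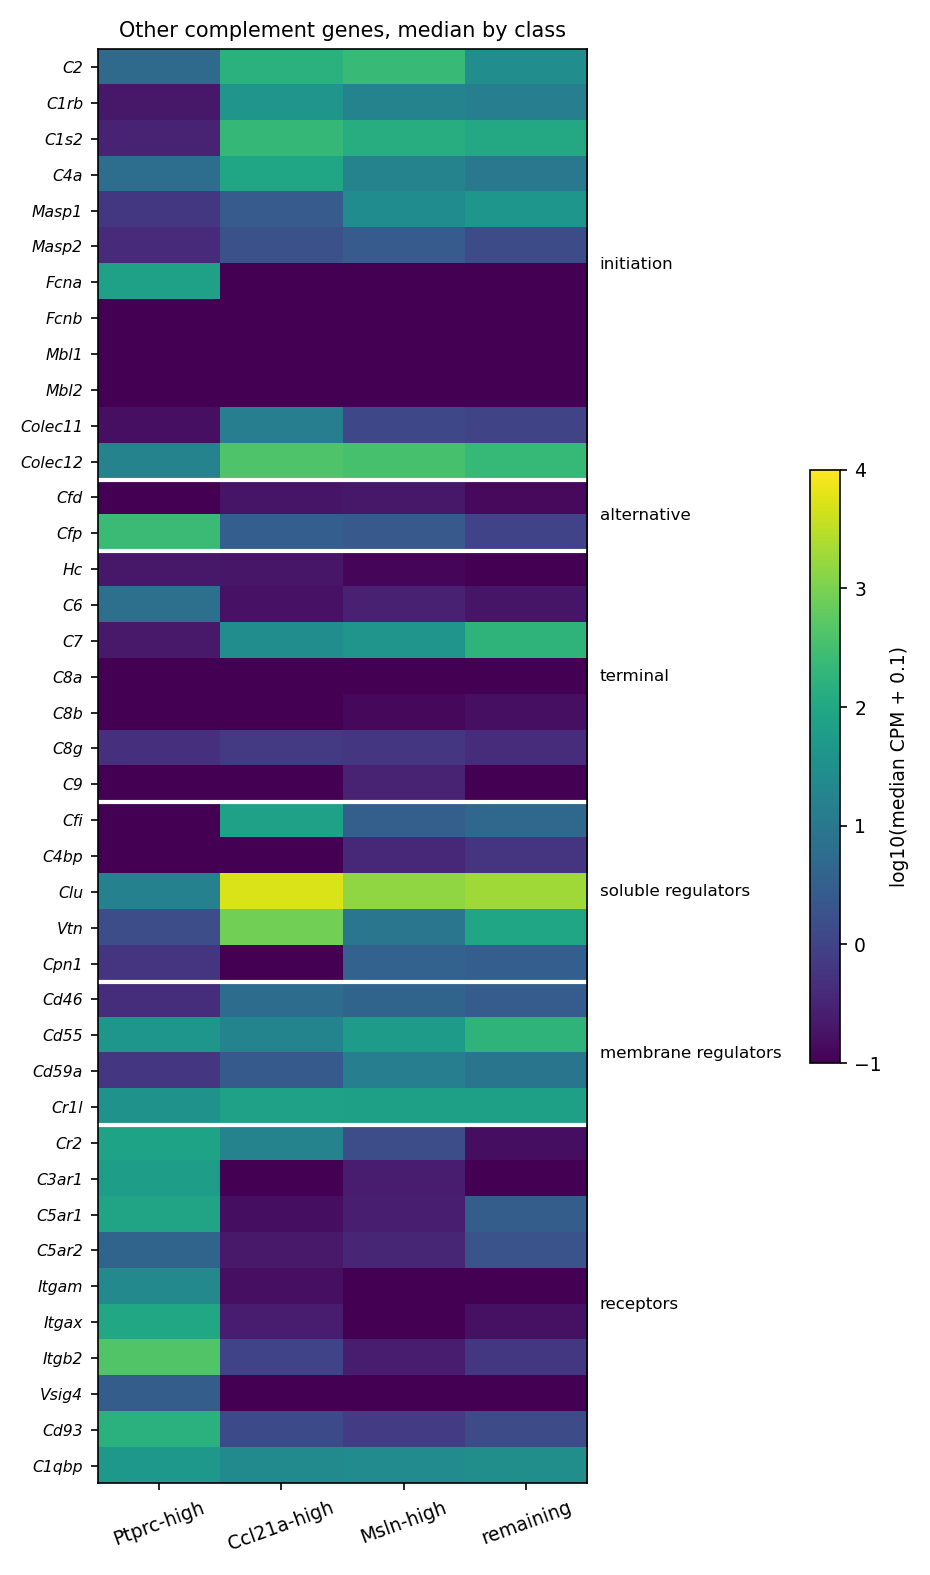
Median level of other complement genes in each class (log scale), from the 6 lists. Receptors are high in the Ptprc-high class, and Clu (5176 CPM) and Vtn (845 CPM) in the Ccl21a-high class.

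The genes most like each member were found by Pearson correlation of log2(CPM + 0.5) over 27 libraries, whose points share classes, so r describes the division into classes first. For C1qa they were Folr2 (r = 0.997), Clec10a and Fcna, for C1qb Adgre1 (r = 0.998), Ptpro and Pirb, and for C1qc Pirb (r = 0.997), Tyrobp and Clec10a. Over the 19 libraries outside the Ptprc-high class, which still fall into 3 classes, C1ra was most like C1rb (r = 0.967), Oat and H2-M3, and C1s1 most like C1s2 (r = 0.996), Gnb4 and Igfbp7. C3 was most like H2-Q6 (r = 0.981), Tnfrsf1b and Gm11127 over these libraries. C4b was most like Des (r = 0.992), C4a and Slamf8, Cfb most like C2 (r = 0.957), Eno2 and Nkd1, and Serping1 most like Clip3 (r = 0.964), Gstm2 and H2-M3.

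The comparisons that the labels imply were tested over all genes, and none of them called a member at an adjusted p under 0.05 with edgeR's quasi-likelihood test and Benjamini-Hochberg adjustment. The percentage of all genes called was 0% in each of the 8 comparisons. Of the other complement genes edgeR also called 0 in each. DESeq2 called 1 (Masp1) for CD45, beside 427 of 14871 genes past the expression filter. For LN FRC it called 5 (C2, C1s2, Masp1, Clu and Cd59a), beside 549 of 13819. For gp38-high against gp38-low it called 2 (Vtn and C3ar1), beside 147 of 18396. It called 20 for gp38-low against LN FRC, beside 4777 of 18396, and 9 for gp38-high against LN FRC, beside 738 of 18396. Libraries of 1 label fell in different classes, and their values were spread widely for every member.

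For the transgene among libraries labelled CD45, C3 was at 23289, 5482, 31851 and 5071 CPM in TG+ replicates 1 to 4, against 33783, 33575, 36555 and 55.4 CPM in TG- replicates 1 to 4. The groups overlapped, since TG- replicate 4 was a Ptprc-high library. The log2 difference was -0.79 ± 1.41 (SE) for C3 and -1.07 ± 1.37 for C4b, and the 6 members that passed the expression filter included 5 with a difference below 0 and Cfb at 0.00 ± 0.81. The C1q chains did not pass it. By edgeR, 1402 of 14871 genes and 0 members had an unadjusted p under 0.05, and DESeq2 called 427 genes and 0 members. Without TG+ replicate 3 edgeR called 519 genes and 0 members.

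Among libraries labelled gp38-low, C3 was at 28891, 5357, 34826 and 10409 CPM in TG+ replicates 1 to 4, against 242, 12988, 31421 and 26035 CPM in TG- replicates 1 to 4. Here too the groups overlapped, and TG- replicate 1 was a Ptprc-high library. The log2 difference was 0.14 ± 1.27 (SE) for C3 and 0.31 ± 1.25 for C4b, with 6 members past the filter and no C1q chain among them. Leaving out single libraries turned the sign of both (C3 -0.36 to 0.74, C4b -0.40 to 2.13). At an unadjusted p under 0.05 edgeR had 273 of 14095 genes and 0 members, and DESeq2 called 1 gene, not a member.

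Among libraries labelled gp38-high, C3 was at 5899 and 7909 CPM in TG+ replicates 1 and 2, against 12102 and 120.3 CPM in TG- replicates 1 and 2. C1qa was at 0.0630 and 0.159 CPM in the TG+ libraries, against 0.383 and 476 CPM in the TG- libraries, of which the second was Ptprc-high. The log2 difference was -11.17 ± 5.27 (SE) for C1qa, 0.45 ± 1.93 for C3 and 0.43 ± 1.57 for C4b. The C1qa value rests on TG+ libraries with 1 and 4 counts and is no bound. Without TG- replicate 2 the C1qa difference was -1.36, and that of C3 was -0.52. By edgeR, 920 of 17937 genes and 0 members had an unadjusted p under 0.05, and DESeq2 called 40 genes and 0 members.

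Among libraries labelled LN FRC the direction differed by member. C3 was at 64.3, 269.9 and 86.3 CPM in TG+ replicates 2 to 4, against 11355, 25780, 258 and 119 CPM in TG- replicates 1 to 4. All 3 TG+ libraries were Ptprc-high, while TG- replicates 1 and 2 were not, so the class and the genotype label are partly confounded and cannot be told apart here. The log2 difference was -5.82 ± 2.07 (SE) for C3, 0.62 ± 2.26 for C1qa and -0.96 ± 0.75 for C4b, with an adjusted p of 0.696 for C3 by edgeR's quasi-likelihood test. By edgeR, 981 of 13819 genes and 4 members (C1ra, C1s1, C3 and Serping1) had an unadjusted p under 0.05. DESeq2 called 549 genes and the same 4 members (C3 adjusted p = 0.00360).

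With class in the fit over all 27 libraries, the members' genotype differences were small. The log2 difference was -0.39 ± 0.39 (SE) for C1qa, -0.38 ± 0.23 for C3 and -0.26 ± 0.29 for C4b, with adjusted p of 0.692, 0.527 and 0.733 by edgeR's quasi-likelihood test. All 9 members were below 0, from -0.39 to -0.07 with a median of -0.25, beside a median of -1e-04 over all 18393 genes. The members are not independent of each other, and their shared sign is not 9 separate results. At an unadjusted p under 0.05 there were 1779 genes and 0 members, and DESeq2 called 0 genes.

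**Figure D5:**
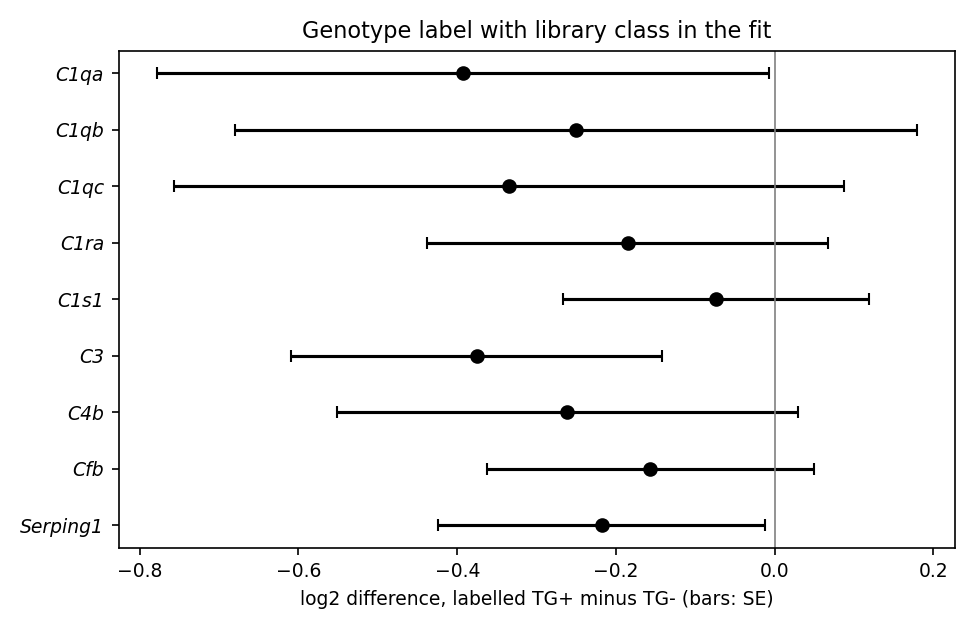
Log2 difference between TG+ and TG- labels (TG+ minus TG-) for each member with class in the fit, 27 libraries; bars are SE. Points run from -0.39 for C1qa to -0.07 for C1s1, and none passed the adjusted threshold.

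Within classes the genotype labels overlapped for all 9 members in the Ptprc-high libraries (3 TG+, 5 TG-), where 0.247% of genes lay wholly higher and 2.5% wholly lower in TG+. They also overlapped for all 9 in the Ccl21a-high libraries (3 TG+, 4 TG-), where 1.44% of genes lay wholly higher and 0.695% wholly lower in TG+. C1qa was at 193, 366 and 1347 CPM in TG+ Ptprc-high libraries, against 195, 476, 740.0, 927 and 992 CPM in TG- ones. In the remaining class 6 members lay wholly lower in the 6 TG+ than in the 2 TG- libraries (C1qa, C1ra, C3, C4b, Cfb and Serping1), beside 11.9% of all genes, and 0 members lay wholly higher, beside 29.5%. C3 was at 5071, 5691 and 10409 CPM (lowest, median, highest) in the TG+ libraries, against 11355 and 12988 CPM in the TG- libraries. The acinar gene Cpa1 spanned 15.0 to 1309 CPM across these TG+ libraries, against 16.5 and 44.9 CPM in the TG- ones, and its part was not tested. C1qa had at most 9 counts in any library outside the Ptprc-high class.

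Between labelled populations, with both genotypes weighted equally, gp38-low against LN FRC had the most members at an unadjusted p under 0.05. C1qa was at 0.158, 0.144, 0.833 and 0.206 CPM in TG+ and 992, 0.670, 0.366 and 0 CPM in TG- libraries labelled gp38-low, against 193, 1347 and 366 CPM in TG+ and 0.565, 0.0584, 927 and 740.0 CPM in TG- libraries labelled LN FRC. The labels overlapped, although 5 of 7 LN FRC libraries and 1 of 8 gp38-low libraries were high. The log2 difference was -5.98 ± 2.17 (SE) for C1qa, 4.08 ± 1.26 for C3 and 2.59 ± 0.79 for C4b, with adjusted p of 0.0957, 0.0943 and 0.0943 by edgeR's quasi-likelihood test. These members were 8, all but Cfb, beside 6639 of 18396 genes. DESeq2 called 4777 genes and the same 8, and edgeR called 5403 genes and 8 members without the library labelled gp38-low TG- replicate 1, the Ptprc-high one, and 1369 genes and 0 members without LN FRC TG- replicate 1.

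For gp38-high against gp38-low the log2 difference was -0.81 ± 2.30 (SE) for C1qa, -1.90 ± 1.39 for C3 and -3.20 ± 1.02 for C4b, with an adjusted p of 0.9999 for C4b by edgeR's quasi-likelihood test. C4b was at 348 and 555 CPM in TG+ and 499 and 217 CPM in TG- libraries labelled gp38-high, against 5399, 513, 6958 and 723 CPM in TG+ and 421, 1019, 7503 and 965 CPM in TG- libraries labelled gp38-low. None of the gp38-high libraries was Ccl21a-high, and 3 of the 8 gp38-low libraries were. By edgeR, 509 genes and 1 member (C4b) had an unadjusted p under 0.05, and DESeq2 called 147 genes and C4b (adjusted p = 0.0157).

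For gp38-high against LN FRC the log2 difference was -6.78 ± 3.09 (SE) for C1qa, 2.19 ± 1.27 for C3 and -0.60 ± 0.90 for C4b, with adjusted p of 0.290, 0.305 and 0.659 by edgeR's quasi-likelihood test. By edgeR, 3014 genes and 4 members (C1qa, C1qb, C1s1 and Serping1) had an unadjusted p under 0.05. DESeq2 called 738 genes and the 3 C1q chains (C1qa adjusted p = 0.0122). The population comparisons share their gp38-high, gp38-low or LN FRC libraries and are not independent.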

How the data were processed

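For each library the authors deposited raw counts of reads in genes, in the form that STAR's counter writes. Sorted cells were collected in TRIzol and made into ribosome-depleted KAPA libraries, per the labels' protocols. The submitters' processing notes name bcl2fastq 2.17, Trim Galore 0.4.3, STAR 2.5.2a and mm10; the gene annotation they counted with is not stated in the sources used here. The reverse-strand column was used, because the forward column held 6.67% to 15.3% of stranded reads. The 4 leading lines, which hold reads of no gene, were left out of totals and tests. Of 54446 identifiers, 54409 matched GENCODE M21 on GRCm38, which gave symbols and positions.

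CPM are counts scaled to a common gene total, Gm26917 and mitochondrial genes included. Gm26917 alone was at 208299 to 359860 CPM in the Ptprc-high class and 97789 to 222367 CPM in the Ccl21a-high class. It was at 53127 to 68215 CPM in the Msln-high class and 53913 to 79344 CPM in the remaining class. The share of the total left to other genes therefore differs by class. Group differences come from edgeR 4.0.16 under R 4.3.3 (TMM, filterByExpr, robust quasi-likelihood F test, Benjamini-Hochberg over all genes tested, threshold 0.05). It was tried on simulated counts of the CD45 design alone. Those counts did not mix classes within a label as the real libraries do, so the trial does not bear on the 0 calls. Each SE is the absolute log2 difference over the square root of F. The CD45, gp38-low and LN FRC libraries were fitted alone, gp38-high with the 12 islet stromal libraries, and populations over 19 libraries. Alternatives were DESeq2 1.42.0, other size factors, no filter, unstranded counts, other totals, other class thresholds, a block on the replicate number, and leaving out single libraries.

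Members and gene lists were chosen with earlier results of these data known. Fitted differences are printed for C1qa, C3 and C4b and for any member called. Other complement genes are named where a class median reaches 10 CPM or where they were not detected. Those near 0, and C6, were named after their values were seen. Some genes are not reported here. Like genes are the 3 with the highest correlation among genes with a mean of at least 5 CPM. Class libraries were compared by range only. Reads copied by PCR are not independent, so floors reflect counting error alone.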

Additional observations from a re-analysis of the deposited data

Results flagged for a closer look

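Of 81 sets of 4 to 10 libraries (a member in a labelled group or a class), 21 had a library far from its group on the log2(CPM + 0.5) scale (Dixon's test at 95%); chance flags about 1 in 20. All but 1 fell on 3 libraries.

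The library labelled CD45 TG- replicate 4, which is Ptprc-high, stood apart from the other 3 of its label. It had C1qa at 195 CPM, C1qb at 134 CPM and C1qc at 133 CPM, where no chain passed 0.638 CPM in the others. Its C1ra was 2.05 CPM, C1s1 1.63 CPM, C3 55.4 CPM, C4b 53.8 CPM and Serping1 2.62 CPM, against 896 to 1036, 1865 to 2660, 33575 to 36555, 5465 to 6427 and 3180.1 to 3385 CPM in the others.

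The library labelled gp38-low TG- replicate 1, also Ptprc-high, had C1qa at 992 CPM, C1qb at 731 CPM and C1qc at 688 CPM, where the other 3 did not pass 0.670 CPM. Its C1ra was 12.6 CPM, C1s1 3.22 CPM and Serping1 4.26 CPM, against at least 531, 941 and 1737 CPM in the others. In the library labelled gp38-low TG+ replicate 3, C1qa was at 0.833 CPM, against 0.144 to 0.206 CPM in the others, or 8 counts against 2 to 3.

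In the Msln-high class the library labelled gp38-high TG- replicate 1 had C1s1 at 708 CPM, C3 at 12102 CPM, C4b at 499 CPM and Serping1 at 934 CPM, each below the other 3. It also had C1qb at 0.191 CPM and C1qc at 0.0957 CPM, or 4 and 2 counts, where the others had 0 counts.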

How the results depend on the processing

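By DESeq2 the counts of genes called were 427 (transgene in CD45), 1 (gp38-low), 40 (gp38-high), 549 (LN FRC), 4777 (gp38-low against LN FRC), 147 (gp38-high against gp38-low) and 738 (gp38-high against LN FRC), where edgeR called 0; members called were 4 (transgene in LN FRC), then 8, 1 and 3 for the population comparisons in that order. The cause was not tested. With single libraries left out, edgeR called 0 to 519 genes for the transgene in CD45 (519 without TG+ replicate 3), and 0 to 5403 genes and 0 to 8 members for gp38-low against LN FRC; it called 0 in the other label comparisons. Log2 differences that turned sign on leaving out 1 library ranged from -0.36 to 0.74 (C3, gp38-low), -0.40 to 2.13 (C4b, gp38-low), -0.52 to 5.65 (C3, gp38-high), -0.35 to 1.25 (C1qa, LN FRC), -5.69 to 3.89 (C1qa, gp38-high against gp38-low) and -0.38 to 2.70 (C3, gp38-high against LN FRC). Of the log2 differences under all alternatives, 340 kept direction and side of the threshold, 9 passed it and 10 turned sign. Same-numbered libraries of a label deviated together with correlations of -0.19 to 0.69. Labelled groups mix the classes, so these values cannot show whether replicate numbers pair the samples. With the replicate block edgeR called 0 genes and 0 members in each of the 5 transgene fits. Doubled class thresholds moved 1 library and gave 0 members higher and 0 lower in the Ptprc-high class, with 4.33% of genes without overlap, 13.3% for Ccl21a-high against remaining and 18.2% for Msln-high against remaining; halved thresholds moved none. Leaving out gp38-high TG- replicate 1, an alternative chosen after seeing the data, gave 2 members higher for Msln-high against remaining, and 6 higher and 1 lower for Ccl21a-high against Msln-high. Class medians stayed within 1 SD in 173 cases and moved in 7, all for C1s1 in unstranded counts or for 4 members of the Ccl21a-high class with Gm26917 and mitochondrial genes left out of the total. Fits on libraries whose markers match the labels could not be made for CD45 or LN FRC. Depth limits C1q outside the Ptprc-high class and Cfb inside it.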
